A study of Mus musculus with 6 samples.

Results

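The splicing factors and neuronal RNA-binding proteins were the rows of the expression table whose gene symbol begins with Srsf or Hnrnp or belongs to the Rbfox, Celf, Elavl, Nova, Ptbp, Mbnl or Khdrbs families or is Qk. They were chosen by symbol alone and came to 56 of the 16060 rows, for 55 symbols, because Nova2 stands on 2 rows with different identifiers. The set held 11 SR proteins, 20 hnRNPs and 25 rows of the smaller families, which are 6 Celf, 4 Elavl, 3 Khdrbs, 2 Mbnl, 3 Nova, 3 Ptbp, 3 Rbfox and Qk, and all 56 passed the filter on low values. RNA was sequenced from the hippocampus of adult male C57BL/6 mice. The 3 Control mice received saline and the 3 MA mice received methamphetamine (MA), a psychostimulant, in escalating doses for 3 weeks, all by intraperitoneal injection, and mice of the model were behaviourally tested before the tissue was taken. Each library came from 1 mouse, and the comparison asks which transcripts differ between MA and saline.

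Pre-mRNA splicing removes introns, and which exons are joined is set largely by proteins that bind near splice sites. SR proteins carry a domain rich in serine and arginine and mostly promote exon inclusion, hnRNPs are abundant nuclear RNA-binding proteins that often oppose them, and the smaller families give tissues, the brain above all, their own exon choices. Many of these genes control their own level through a poison exon, whose inclusion sends the transcript to nonsense-mediated decay (NMD).

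The deposited values were log2 figures per kilobase of transcript, so levels can be set beside one another between genes, and every difference below is MA minus Control on that log2 scale. The values do not show sequencing depth. Neuron markers were abundant in each library. Their summed back-transformed level was 3152 to 3435 in Control and 3566, 3751 and 2693 in MA 1, MA 2 and MA 3. No marker gene held in the table was at 0 in all libraries at once. Hippocampal markers summed to 291 to 372 in Control and 270 to 320 in MA. Of the 8, 7 had a lower mean in MA, with a median difference of -0.139, and groups were separate in 1 higher and 1 lower. Markers of other tissue differed with the groups. The 9 choroid plexus markers were all higher in the 3 MA libraries, with summed levels of 99.8 to 476 in Control and 1928 to 5304 in MA, and 4 of them had an adjusted p under 0.05 in limma. All 5 erythrocyte markers were also higher, with summed levels of 1599 to 2024 against 3319 to 4378, and 3 passed. Thalamus markers summed to 54.6 and 75.3 in MA 1 and MA 2, against 19.4 in MA 3 and 19.6 to 26.9 in Control. MA 3 stood somewhat apart, with a mean correlation of 0.978 to its group over the tested genes where the other 5 libraries had 0.984 to 0.993. Whether these differences in cell content have a part in the results below was not tested, and in bulk tissue fewer cells of a type and less RNA per cell cannot be told apart. No gene was targeted in this design, so the labels cannot be checked by one, and an exchange of the column names MA and Control would turn every direction given here. The activity-induced genes Fos, Egr1, Arc and Nr4a1, named after their values were seen, were lower in the MA columns, with separate groups. Their limma differences were -1.61, -1.46, -1.80 and -1.45 (adjusted p = 0.0315, 0.0181, 0.0181 and 0.0244). The paper reports these same genes as upregulated by MA, in its RNA sequencing and by quantitative PCR, which is the opposite direction. Whether the column names were exchanged was not tested.

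Across the set, 23 members had a higher mean in MA and 33 a lower one, and the median difference was -0.027, against -0.010 over all 13321 tested genes. None of the 56 reached an adjusted p under 0.05 in limma, while 0.263% of all tested genes did. At an unadjusted p under 0.05 there were 11 members, 19.6% of the set against 10.4% of all tested genes, of which 5 were higher (background 4.99%) and 6 lower (background 5.46%). In 15 members (26.8%, background 17.5%) all 3 MA values lay on one side of all 3 Control values. Of these, 4 were higher in MA, where the background was 7.32%, and 11 were lower, where it was 10.2%. With 3 mice against 3, the exact two-sided permutation test of a single gene gives 0.1 at best, and each of these 15 gave that value. Median centring and quantile normalization left these counts at 4 higher and 11 lower. Both could change little, because the deposited libraries already had almost the same distribution of values. The unchanged counts are therefore no check on the lean towards lower values. That lean was smaller after the length and GC correction given next. After correction of each library for transcript length and GC content, 8 members separated upwards (background 8.46%) and 9 downwards (background 9.98%), and 6 higher (background 5.89%) and 4 lower (background 5.67%) had an unadjusted p under 0.05.

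**Figure D1:**
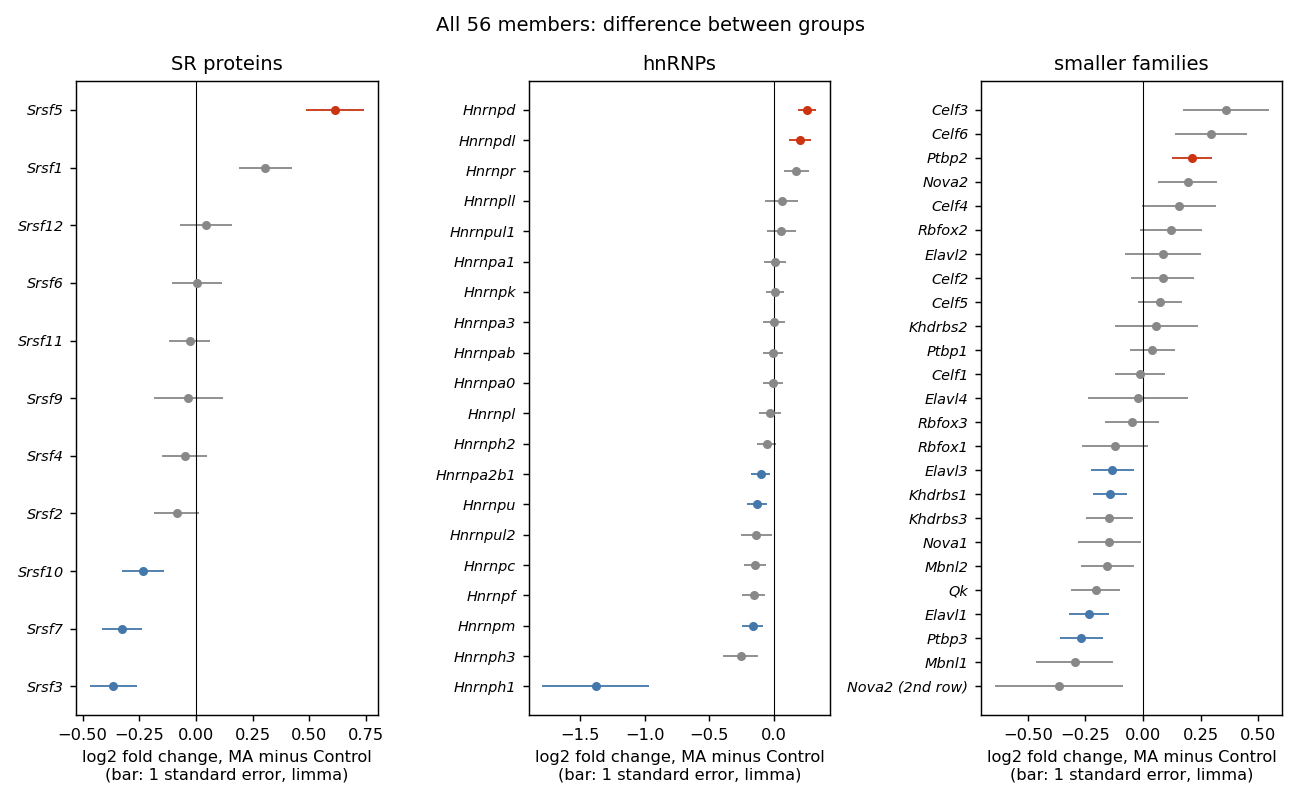
Log2 fold change of each of the 56 members, MA minus Control, from limma with 1 standard error, in 3 panels for SR proteins, hnRNPs and smaller families, each with its own horizontal scale. Red marks the 4 members whose 3 MA values all lie above the Control values, blue the 11 whose MA values all lie below, and grey those whose groups overlap.

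Of the 4 members with the smallest p, Srsf5, Srsf7 and Srsf3 were SR proteins and Hnrnpd was an hnRNP. Srsf5, an SR protein with a pair of RNA-recognition motifs, was higher in MA, and Srsf3 and Srsf7, a pair of closely related short SR proteins that also link splicing to mRNA export, were lower. Srsf5 was listed at 6.78, 6.82 and 6.78 in the Control libraries and at 7.52, 7.59 and 7.11 in MA 1, MA 2 and MA 3. The Control values were almost level, every MA value lay above them, and MA 3 fell between the Control values and the other two MA values. The difference was 0.61 with a standard error of 0.13, or 1.53-fold, on the log2(value + 1) scale, with adjusted p = 0.166 in limma. On the back-transformed scale the Control mean was 110 and the MA mean 171, which made Srsf5 the highest SR protein of the set.

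Srsf7 was listed at 5.31, 5.15 and 5.24 in Control and at 4.98, 4.81 and 4.93 in MA. The groups did not overlap, and the difference was -0.33 with a standard error of 0.087 (limma adjusted p = 0.265). Srsf3 was listed at 6.06, 5.88 and 5.96 in Control and at 5.61, 5.44 and 5.75 in MA. Here too the groups were separate, with MA 3 nearest to Control, and the difference was -0.36 with a standard error of 0.10 (limma adjusted p = 0.290). Srsf10, an atypical SR protein that represses splicing when dephosphorylated, as after heat shock, stood at 4.86, 4.69 and 4.89 in Control and at 4.68, 4.56 and 4.50 in MA, a difference of -0.23 (limma adjusted p = 0.452). Its groups were separate by a narrow margin, between Control 2 and MA 1. Srsf1, the prototype of the family, stood at 5.99, 5.89 and 6.16 in Control and at 6.49, 6.34 and 6.14 in MA, so that MA 3 fell inside the Control range. Its difference of 0.31 had an adjusted p of 0.423 in limma and an exact permutation p of 0.2.

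The other 6 SR proteins (Srsf2, Srsf4, Srsf6, Srsf9, Srsf11 and Srsf12) had overlapping groups and differences between -0.086 and 0.044. Srsf9 and Srsf2 were highest of the 6 libraries in MA 3, at 6.29 and 6.59, and lowest in MA 1 and MA 2 respectively, at 5.70 and 6.29. Srsf12, an SR protein of low level, was the lowest of the group, at 3.60, 3.28 and 3.35 in Control and 3.41, 3.57 and 3.38 in MA. Its values in the groups were interleaved. The calls on SR proteins changed with the libraries used and their weights. Without MA 3, Srsf5 passed the adjusted threshold, with a difference of 0.76 and adjusted p = 0.0124 in limma. In that fit Srsf3 and Srsf7 did not pass (limma adjusted p = 0.0606 and 0.0902). Quality weights in limma are estimated from how far each library departs from its group in these same values, with no separate measure of quality. With these weights, Srsf5 (limma adjusted p = 0.00523), Srsf3 (0.0315) and Srsf7 (0.0448) passed.

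**Figure D2:**
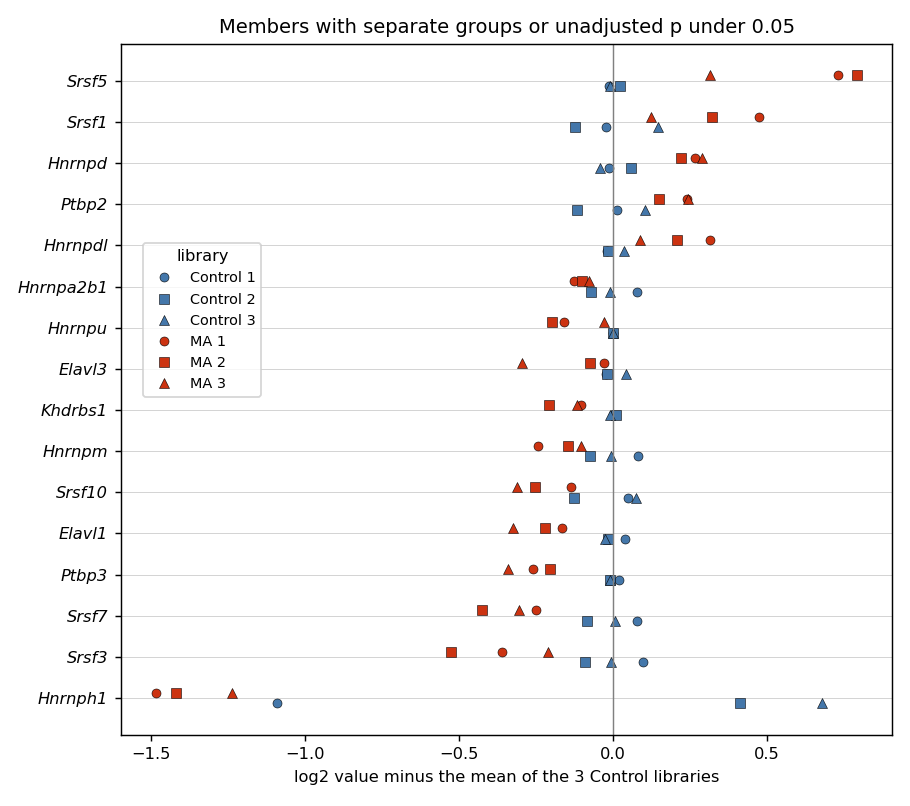
Deposited log2 value minus the Control mean, per library, for the 16 members with separate groups or an unadjusted p under 0.05, ordered by their difference. Circles, squares and triangles are replicates 1, 2 and 3, in blue for Control and red for MA; Srsf5 lies furthest to the right and Hnrnph1, with Control 1 close to the MA values, furthest to the left.

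The promoters of the 4 members with the smallest p are shown because these members differed in both directions, Srsf5 and Hnrnpd being higher in MA and Srsf7 and Srsf3 lower. They come from RefSeq on GRCm38.p6, each window of 300 bases reaching from upstream of the start to just past it, written 5′ to 3′ on the strand of the gene. The build behind the deposited values was not given in the sources used here beyond the names mm8 and mm9, so these positions come from the reference and not from the table. Capitals mark matches on either strand to GGGCGG (the GC box bound by Sp1), CCGGAA (the core of ETS sites), TATAAA (the TATA box) or CCAAT (the CCAAT box), and TGACGTCA (the cAMP response element) was also searched. The lines give Srsf5 at chr12:80945249-80945548 (plus strand), Hnrnpd at chr5:99978889-99979188 (minus), Srsf7 at chr17:80207256-80207555 (minus) and Srsf3 at chr17:29032410-29032709 (plus).
Srsf5: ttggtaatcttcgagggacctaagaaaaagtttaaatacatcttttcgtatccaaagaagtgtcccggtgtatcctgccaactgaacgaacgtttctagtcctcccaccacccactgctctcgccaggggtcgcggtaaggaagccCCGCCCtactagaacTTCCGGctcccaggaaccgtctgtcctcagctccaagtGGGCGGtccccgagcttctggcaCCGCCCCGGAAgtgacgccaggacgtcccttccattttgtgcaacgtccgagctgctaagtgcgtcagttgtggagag
Hnrnpd: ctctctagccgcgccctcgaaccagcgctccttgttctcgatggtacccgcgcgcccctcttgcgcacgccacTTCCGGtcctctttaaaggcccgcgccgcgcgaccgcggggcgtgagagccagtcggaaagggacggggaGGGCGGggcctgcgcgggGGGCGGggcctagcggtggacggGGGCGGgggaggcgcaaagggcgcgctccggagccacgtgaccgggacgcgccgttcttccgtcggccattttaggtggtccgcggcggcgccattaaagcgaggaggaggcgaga
Srsf7: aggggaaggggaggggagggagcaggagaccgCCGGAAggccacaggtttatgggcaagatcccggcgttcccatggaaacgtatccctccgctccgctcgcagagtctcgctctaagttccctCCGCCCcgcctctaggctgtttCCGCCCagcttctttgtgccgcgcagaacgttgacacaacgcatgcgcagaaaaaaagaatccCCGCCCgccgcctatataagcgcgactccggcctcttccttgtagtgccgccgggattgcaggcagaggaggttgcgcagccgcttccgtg
Srsf3: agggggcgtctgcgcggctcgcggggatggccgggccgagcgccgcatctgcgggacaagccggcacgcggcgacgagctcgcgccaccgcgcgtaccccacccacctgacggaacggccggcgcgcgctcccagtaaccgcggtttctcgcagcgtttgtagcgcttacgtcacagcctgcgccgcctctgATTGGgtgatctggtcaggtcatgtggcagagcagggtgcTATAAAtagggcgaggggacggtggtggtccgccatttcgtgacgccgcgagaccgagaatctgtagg

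Srsf5, Hnrnpd and Srsf7 each held 3 matches to GGGCGG, and they held 2, 1 and 1 matches to CCGGAA. In the Srsf5 promoter the match to CCGGAA at -23 overlaps the GGGCGG match at -28. Srsf3 held neither, and had a TATAAA match at -18 and a CCAAT match at -58 from the start. None of the 4 held TGACGTCA. Thus the higher Srsf5 and Hnrnpd and the lower Srsf7 had the same 2 motifs in this window. Over the set, 48 genes matched 85 promoters in the RefSeq table. GGGCGG was in 67.1% of these, against 35.7% of all 32851 promoters of the same length, CCAAT in 50.6% against 37.4%, CCGGAA in 22.4% against 14.9%, TATAAA in 10.6% against 13.6% and TGACGTCA in 4.71% against 1.79%. The 32851 promoters were not limited to tested genes, whereas all members were tested. A match is a stretch of letters and not a measured site. The genes themselves lie, in GENCODE M21 on GRCm38, at chr12:80945504-80950507 for Srsf5, chr5:99955935-99978938 for Hnrnpd, chr17:80200080-80207307 for Srsf7 and chr17:29032628-29043373 for Srsf3.

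The annotation also shows what the SR proteins have in common apart from their domain. In GENCODE M21, 9 of the 11 SR protein genes (81.8%) have a transcript annotated as a target of NMD, against 10 of 20 hnRNPs, 9 of 24 genes of the smaller families (37.5%) and 28.1% of all tested protein-coding genes. Srsf5 has 1 such transcript, Srsf7 has 1, Srsf3 has 2 and Hnrnpd has 4. A table of 1 value per gene cannot tell these from the transcripts that code for protein.

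Among the hnRNPs, Hnrnpd was higher in MA and Hnrnph1 lower, and most others were level. Hnrnpd, or AUF1, binds AU-rich elements and acts in mRNA decay. It was listed at 5.62, 5.69 and 5.59 in Control and at 5.90, 5.86 and 5.92 in MA. MA 3 was the highest of the 6 here, the 3 MA values were close together, and the difference was 0.26 with a standard error of 0.072 (limma adjusted p = 0.290). An antisense gene, Gm17092, overlaps its exons and was not in the table, and whether the counting used strand is not stated. The related Hnrnpdl stood at 5.95, 5.95 and 6.00 in Control and at 6.28, 6.17 and 6.06 in MA, a difference of 0.20 (limma adjusted p = 0.458). All 3 of its MA values lay above Control, MA 3 by the least.

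Hnrnph1, which binds runs of G and regulates exons on either side, differed by the largest amount of any member, and its Control mice disagreed with one another. It was listed at 7.43, 8.93 and 9.20 in Control 1, 2 and 3 and at 7.04, 7.10 and 7.28 in MA. Control 1 lay 0.145 above the highest MA library, while Control 2 and Control 3 lay well above all others. The highest Control value was 3.41-fold the lowest on the log2(value + 1) scale. The Control range of 1.77 ranked 23 among the 13321 tested genes, whose median Control range was 0.197, and the MA range was 0.248. The difference was -1.38 with a standard error of 0.41 (limma adjusted p = 0.326). Without Control 1 it was -1.93 with adjusted p = 0.0372 in limma, the only member called in that fit (background 0.0225%). The gene lies at chr11:50376990-50386528 (GENCODE M21), with no other gene over its exons.

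Hnrnph1 has close copies, so reads could be shared among them. Hnrnph2, the nearest, stood at 5.85, 5.80 and 5.86 in Control and at 5.85, 5.76 and 5.75 in MA, and Hnrnpf at 5.64, 5.54 and 5.68 against 5.38, 5.41 and 5.60. Neither showed the split between the Control mice. Whether reads were shared among these genes was not tested. Hnrnph3 stood at 5.55, 5.42 and 5.39 in Control, at 5.13 and 4.98 in MA 1 and MA 2 and at 5.49 in MA 3, so that MA 3 lay within the Control range and the other two below it. Its difference was -0.25 (limma adjusted p = 0.582), and it overlaps exons of Rufy2 on the opposite strand.

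**Figure D3:**
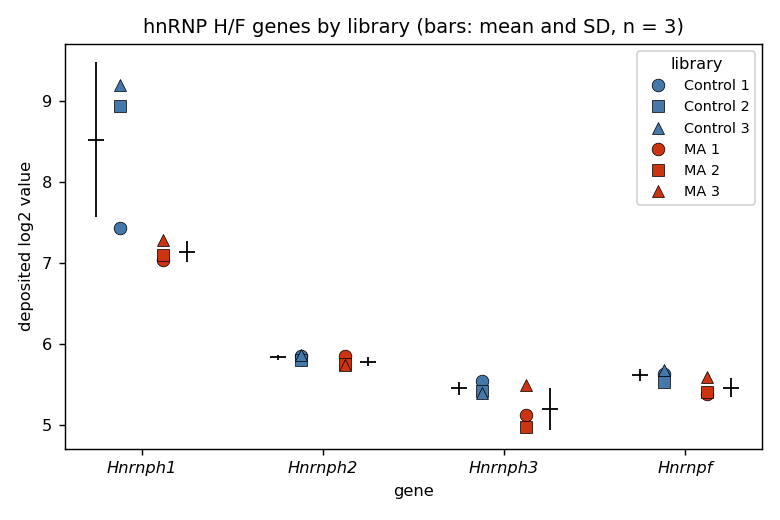
Deposited log2 values of Hnrnph1, Hnrnph2, Hnrnph3 and Hnrnpf in each of the 6 libraries, Control in blue and MA in red, with the mean and SD of each group (n = 3) beside the points. Hnrnph1 in Control 2 and Control 3 stands at 8.93 and 9.20, apart from Control 1 at 7.43 and from the MA libraries, and the other genes show no such split.

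Hnrnpa2b1, which binds exon and trafficking signals in RNA, had the highest mean log2 level of any member over the 6 libraries. That level was 8.57, the 98.7th percentile of all genes listed, tested or not. The Control mean of Hnrnph1 was nonetheless higher on the back-transformed scale (415 against 394). Hnrnpa2b1 was listed at 8.70, 8.55 and 8.62 in Control and at 8.50, 8.52 and 8.55 in MA. The groups were separate by less than the spread within Control (difference -0.10, limma adjusted p = 0.684). Hnrnpm stood at 6.03, 5.87 and 5.94 against 5.70, 5.80 and 5.84, and Hnrnpu, a large nuclear scaffold protein, at 5.31 in all 3 Control mice against 5.15, 5.11 and 5.28. These separate groups lay close together, at differences of -0.16 and -0.13, and neither passed (limma adjusted p = 0.550 and 0.639). Hnrnpm shares exon sequence with March2 on the same strand and Hnrnpu with Cox20 on the opposite one. The remaining hnRNPs overlapped, with differences between -0.15 for Hnrnpc and Hnrnpf and 0.18 for Hnrnpr, apart from Hnrnph3 above. The lowest of them by level was Hnrnpll, at 4.16, 4.15 and 4.13 in Control and 4.38, 4.31 and 3.94 in MA, above Control in MA 1 and MA 2 and below it in MA 3.

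MA 3 and the other two MA mice fell on opposite sides of the Control mean in 14 of the 25 rows of the smaller families (56%), a share near the 49.1% of all tested genes, and the values by family follow. The Celf proteins, which regulate splicing and stability of neuronal transcripts, were higher in MA 1 and MA 2 than the Control mean, and lower in MA 3, in 6 of 6 members. The median over the 6 was 0.30 above Control in MA 1 and MA 2 and 0.17 below it in MA 3. Celf3 stood at 6.05, 5.84 and 5.95 in Control and at 6.54, 6.53 and 5.85 in MA. MA 3 therefore lay inside the Control range, near its low end, and the difference of 0.36 carried a standard error of 0.19 (limma adjusted p = 0.568). Celf4, the most abundant of the family, stood at 6.59, 6.67 and 6.76 in Control and at 7.01, 7.04 and 6.44 in MA, so that MA 3 was the lowest of the 6 libraries. Celf6, the least abundant, stood at 2.96, 3.08 and 2.95 against 3.56, 3.34 and 2.97. Celf1, Celf2 and Celf5 were also lowest in MA 3. Without MA 3, Celf3 differed by 0.59 with adjusted p = 0.0282 in limma. Exons of Celf3 overlap Riiad1 on the opposite strand.

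The Rbfox proteins, neuronal regulators of exons in synaptic genes, were lowest of the 6 libraries in MA 3 in 3 of 3 members. Rbfox3, known as NeuN and used to mark neurons, stood at 6.74, 6.70 and 6.80 in Control and at 6.79, 6.86 and 6.44 in MA. Rbfox1 stood at 6.75, 6.51 and 6.68 against 6.62, 6.74 and 6.21. For both, MA 1 and MA 2 lay within or just above the Control range and MA 3 below it. Rbfox2, the lowest of the family by level, stood at 4.77, 4.63 and 4.80 against 4.95, 5.05 and 4.57. Here MA 1 and MA 2 were above all Control mice. The adjusted p of the 3 genes in limma ran from 0.816 to 0.933. In level, the ranges of Rbfox3 and Rbfox1 over the 6 libraries overlapped, and Rbfox2 lay below both.

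Elavl1, or HuR, the member of its family present in most cells, was listed at 3.73, 3.67 and 3.67 in Control and at 3.52, 3.47 and 3.37 in MA. It was lower in every MA mouse, by 0.24 (limma adjusted p = 0.416), and its exons overlap Ccl25 on the opposite strand. Elavl3, a neuronal Hu protein, stood at 5.55, 5.55 and 5.61 against 5.54, 5.50 and 5.28. Its groups were separate, but MA 1 lay just below Control, and only MA 3 was clearly lower (difference -0.13, limma adjusted p = 0.682). Elavl4, the lowest of the family, ranged from 3.21 to 3.77 in Control and from 3.22 to 3.93 in MA. Elavl2 stood at 4.03, 4.10 and 4.33 against 4.48, 4.36 and 3.88, again with MA 3 the lowest.

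The muscleblind proteins Mbnl1 and Mbnl2, which switch exons from the fetal to the adult form, were both lowest in MA 3. Mbnl1 stood at 3.90, 3.77 and 4.01 in Control and at 3.82, 3.74 and 3.23 in MA, and Mbnl2 at 5.33, 5.22 and 5.37 against 5.27, 5.28 and 4.92. MA 1 and MA 2 lay within the Control range or just below it. Mbnl3 was not analysed here. Qk, or quaking, needed for myelin transcripts in oligodendrocytes, stood at 4.99, 5.08 and 5.17 against 5.04, 4.89 and 4.70 (difference -0.20, limma adjusted p = 0.572). Its groups overlapped at MA 1. Of the 9 oligodendrocyte markers, 8 also had a lower mean in MA, with a median difference of -0.20, which was -0.41 in MA 1 and MA 2 and 0.086 in MA 3, and none had separate groups. Their summed level, in which Mbp is the largest term and the one marker with a higher mean, was 3005 to 3318 in Control and 3307, 2799 and 3485 in MA 1, MA 2 and MA 3. Their part in the values of Qk was not tested.

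**Figure D4:**
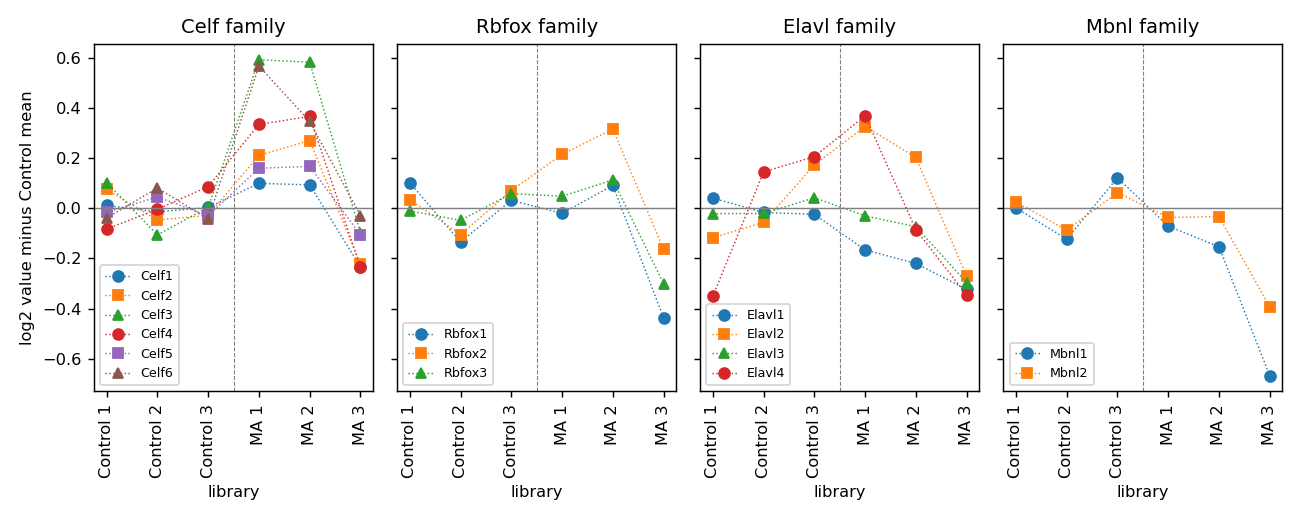
Deposited log2 value minus the Control mean in each library for the Celf, Rbfox, Elavl and Mbnl families, 1 line per gene, with Control to the left and MA to the right of the dashed line. The 6 Celf genes lie above 0 in MA 1 and MA 2 and below 0 in MA 3, and all 3 Rbfox and both Mbnl genes are lowest in MA 3.

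Over the whole set MA 3 was the lowest of the 6 libraries in 24 of 56 members, 42.9% against 29.8% of all tested genes, and the highest in 7 members, 12.5% against 25.6%. It was lowest in 15 of the 25 rows of the smaller families, in 7 of 20 hnRNPs and in 2 of 11 SR proteins. The median over all 56 members was 0.017 below Control in MA 1 and MA 2 and 0.10 below it in MA 3. Of the marker lists, the 11 neuron markers had a median 0.13 above Control in MA 1 and MA 2 and 0.32 below it in MA 3, the 7 endothelial markers 0.29 above and 0.23 below, and the 8 astrocyte markers 0.019 below and 0.33 below. The part of these markers in the pattern was not tested. The SD of the MA group exceeded that of Control in 41 of 56 members (73.2%), near the 71.1% of all tested genes, and in 21 of the 25 rows of the smaller families.

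The Ptb proteins differed in direction from one another. Ptbp2, the neuronal form that holds back adult exons during development, stood at 4.81, 4.68 and 4.90 in Control and at 5.03, 4.94 and 5.04 in MA, a difference of 0.21 (limma adjusted p = 0.466). Ptbp3, first known from blood cells and the least abundant member of the set, stood at 2.30, 2.27 and 2.27 against 2.02, 2.08 and 1.94, a difference of -0.27 (limma adjusted p = 0.393). The groups of both were separate, and MA 3 did not break either pattern. Ptbp1, which represses neuronal exons in other cells, overlapped at 3.72, 3.54 and 3.52 against 3.62, 3.57 and 3.72.

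Khdrbs1, or Sam68, a target of kinase signalling that regulates neurexin exons, stood at 4.98, 4.99 and 4.97 in Control and at 4.88, 4.77 and 4.86 in MA. The groups were separate (difference -0.14, limma adjusted p = 0.572). Its neuronal relatives Khdrbs3, the most abundant of the family, at 7.0, 6.92 and 6.72 against 6.64, 6.69 and 6.87, and Khdrbs2, the least, at 2.81, 2.49 and 2.24 against 2.35, 2.83 and 2.53, overlapped between groups.

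The Nova proteins bind clusters of a short motif in neuronal transcripts. Nova1, the lowest by level, stood at 2.38, 2.44 and 2.65 in Control and at 2.58, 2.26 and 2.20 in MA, with groups that overlapped. The 2 rows of Nova2 went opposite ways. ENSMUSG00000030411 stood at 2.32, 2.52 and 2.52 in Control and at 2.74, 2.78 and 2.43 in MA. ENSMUSG00000108585, which GENCODE M21 does not hold, stood at 2.99, 2.94 and 2.89 in Control and at 2.22, 2.21 and 3.29 in MA. MA 3 was thus lower than the other two MA mice on the first row and the highest of the 6 on the second. Differences over all 6 libraries were 0.19 and -0.37 (limma adjusted p = 0.670 and 0.709), and without MA 3 the second row differed by -0.72 with adjusted p = 0.0274. How the authors divided reads between the rows is not stated, so neither is taken here as the level of the gene.

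Leaving out MA 3 changed the counts of the whole set. Then 3 members passed an adjusted p under 0.05 in limma (Srsf5, Celf3 and the second Nova2 row), where the background also grew, to 1.93%. An unadjusted p under 0.05 was reached by 25 members, 44.6% against 23.3%, of which 14 were higher (background 11.9%) and 11 lower (background 11.4%). Groups were separate in 35 members, 62.5% against 42.9%, of which 18 were higher (background 20.8% of genes) and 17 lower (background 22.1%). With quality weights 6 members passed the adjusted threshold (background 4.4%), namely Srsf5, Celf3, Srsf3, the second Nova2 row, Srsf7 and Hnrnph3.

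The machinery on which these proteins act was read from 3 further lists. None of their genes passed the adjusted threshold in limma with all libraries weighted equally. Of 69 tested rows of core spliceosome genes, 16 were higher and 53 lower in MA, where 7025 of all 13321 tested genes were lower. The median was -0.054, against -0.010 over all genes, and against Control it was -0.072 in MA 1 and MA 2 and -0.0048 in MA 3. Only 2, Txnl4a and Snrnp48, had an unadjusted p under 0.05, both lower, which is 2.90% against the background of 10.4%. The 3 with the smallest p were Txnl4a of the U5 particle (difference -0.26, limma adjusted p = 0.458), Snrnp48 of the minor spliceosome (-0.32, adjusted p = 0.462) and the Sm protein Snrpg (-0.33, adjusted p = 0.497).

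Of 31 SR-protein kinases and SR-related proteins, 18 were higher and 13 lower, with a median of 0.022. An unadjusted p under 0.05 was reached by 1 higher gene, Srrm2, and 4 lower ones, Tra2a, Clk1, Tra2b and Srek1, in all 16.1% of the list against 10.4% of all tested genes. Srrm2, a large scaffold of nuclear speckles, stood at 6.49, 6.56 and 6.42 in Control and at 6.66, 6.98 and 7.07 in MA (difference 0.41, limma adjusted p = 0.292). The splicing activator Tra2a stood at 5.82, 5.53 and 5.60 against 4.94, 5.10 and 5.44 (difference -0.49, limma adjusted p = 0.306). Clk1, a kinase that phosphorylates SR proteins, stood at 6.26, 5.96 and 5.99 against 5.60, 5.33 and 5.82 (difference -0.48, limma adjusted p = 0.311). For all 3 the groups were separate. For Tra2a and Clk1, MA 3 lay nearest to Control, as it did for Srsf3 and Srsf5. For Srrm2 it lay furthest from Control, and for Srsf7 and Srsf10 the nearest was MA 1.

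Of 51 tested other RNA-binding proteins of neurons, 26 were higher and 25 lower, with a median of 0.005, and 5 higher and 3 lower had an unadjusted p under 0.05, in all 15.7% of the list against 10.4% of all tested genes. Rbm24 differed by -0.50 (limma adjusted p = 0.306), Pcbp3 by 0.36 (adjusted p = 0.325) and Cirbp, a protein induced by cold, by 0.37 (adjusted p = 0.393). Cirbp stood at 5.46, 5.94 and 5.84 in Control and at 6.08, 6.07 and 6.19 in MA, higher in all 3 MA mice.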

How the data were processed

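RNA from the hippocampus of 3 Control and 3 MA mice was sequenced by the authors as paired-end reads from poly(A) RNA, and the paper names Hisat2 for alignment and featureCounts for counting, with scaling by gene length. The deposited values are on a log2 scale, read here as log2(RPKM + 1), and the libraries share one highest value (12.298) and differ at any one rank by at most 0.0506 (median 0.0110), so their distributions are almost the same. How the authors made them so is not stated. MA 3 lists no gene at 0 but 397 at its lowest value of 0.00021, where the others list 259 to 437 at 0. The submitters' notes name Bowtie 0.12.2, mm8 and mm9, with no roles, and the build used is not given in the sources used here. No counts are in the table, so depth is unknown and no count test was run.

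A gene was tested if 3 or more libraries held it at 0.5 or higher after back-transformation, which left 13321. The test was limma 3.58.1 under R 4.3.3, by lmFit and trended eBayes without covariates, with Benjamini-Hochberg adjustment over all of them and a threshold of 0.05. This stands in for the authors' DESeq2. Groups came from the labels, which call each sample a mouse. Directions rest on the column names MA and Control. Under these names Fos, Egr1, Arc and Nr4a1 were lower in MA, whereas the paper reports them as upregulated by MA. Members named with all values were those with an unadjusted p under 0.05 or separate groups and the highest and lowest of each family by level. Related members were added beside them after their values were seen, as were Tra2b and Srek1. In the 3 pathway lists the 3 genes with the smallest p were named. Members and lists were chosen with earlier results of these data known. Gene lengths, GC content and transcript types came from GENCODE M21 (55 of 56 members matched), and promoters from the RefSeq table. On data simulated for this comparison, 200 of 13321 genes were changed by 1 on the log2 scale in 10 tables. A median of 77% of them were recovered, and 4.60% of the calls were false. Every member except Hnrnph1 differed by less than 1, the largest of these differences being 0.61 for Srsf5. Recovery of differences of that size or smaller was not tested. Of the members, 24 overlap exons of another gene.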

Additional observations from a re-analysis of the deposited data

How the results depend on the processing

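Alternatives were other filters, pseudocounts, scalings and variance models, quality weights, a length and GC correction, a replicate block and leaving out each library in turn. No member had an adjusted p under 0.05 in limma over all libraries (11 had an unadjusted p under 0.05), while quality weights gave 6 and leaving out 1 library gave 0 to 3, the most without MA 3, with 1 (Hnrnph1) without Control 1. The count at an unadjusted p under 0.05 was 26 with quality weights (46.4%, background 26.3%) and ran from 5 without Control 1 (8.93%, background 6.22%) to 25 without MA 3 (44.6%, background 23.3%), with 6 without Control 2 (background 6.84%), 7 without Control 3 (7.59%) and 6 without MA 2 (7.74%). Members with separate groups ran from 16 without MA 2 (28.6%, background 24.7%) to 35 without MA 3 (62.5%, background 42.9%). For the 16 members with separate groups or an unadjusted p under 0.05, 266 of 271 pairs of a gene and an alternative kept their direction and side of the adjusted threshold, 5 passed it and none reversed. With the replicate block 5 members had an unadjusted p under 0.05 (background 6.32%) and 0 passed the adjusted threshold (0.113%). Deviations of libraries with the same number correlated at -0.197, -0.242 and -0.337. With 3 libraries in each group these values cannot show whether mice of one number were handled together. The labels give no more than the number. In the core spliceosome list, 20 genes had an unadjusted p under 0.05 with quality weights and 19 without MA 3, against 2 over all libraries, which is 29.0% and 27.5% against backgrounds of 26.3% and 23.3%. Among other RNA-binding proteins of neurons there were 20 and 18 (39.2% and 35.3%), against 8. Among SR-protein kinases and SR-related proteins there were 6 and 7 (19.4% and 22.6%), against 5. At the adjusted threshold, quality weights gave 1 core spliceosome gene, 2 SR-related genes and 1 other RNA-binding protein (background 4.4%). Without MA 3 these counts were 1, 1 and 0 (background 1.93%). The cause of these changes was not tested. Depth is unknown, and 3 mice in each group limit the precision.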
